A study of Mus musculus with 12 samples.

Results

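PLAGL1 (also called ZAC1) is a zinc finger transcription factor encoded by a paternally expressed imprinted gene. To examine its role once bone formation has been triggered, RNA was compared between cells given Cre recombinase and cells given a control virus, both on day 4 of osteogenic induction. The cells were mesenchymal cells grown from the mandibular condyle, the part of the lower jaw that meets the skull, of early postnatal Plagl1 fl/fl mice, in which both alleles carry loxP sites. They were infected with an adenovirus that expresses Cre and EGFP or with one that expresses EGFP alone, at a multiplicity of infection of 100, and were then cultured with 5 mM beta-glycerophosphate, 50 ug/ml ascorbic acid and 100 nM dexamethasone. The groups are called OI-AdV-CRE-EGFP and OI-AdV-EGFP, with 3 libraries each, or 6 of the 12 in the series. The other 6 are the same infections without inducers on day 0 (AdV-CRE-EGFP and AdV-EGFP, 3 each). All 4 groups carry the floxed alleles and an adenovirus, and no group was kept without inducers until day 4. No cells without floxed alleles were given Cre, so effects of Cre itself and of losing Plagl1 cannot be told apart. Whether replicates were independent cultures or animals is not stated in the labels, and p-values therefore measure only the scatter of these libraries, possibly a technical one.

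The comparison covered all 13670 genes with enough counts. During osteogenic differentiation, mesenchymal cells pass under the control of RUNX2 and then SP7 (osterix), lay down a collagen matrix, and switch on the phosphatases and acidic glycoproteins that let it mineralize. IGF2, a growth factor that binds the IGF1 receptor, and the IGF binding proteins that carry it are made by bone cells as autocrine signals. Dexamethasone, one of the inducers, also favours adipocyte genes in mesenchymal cultures.

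The 6 libraries held 16300899 to 18052040 counts. Within a group they differed by a root mean square of at most 0.351 on the log2 scale, and between the groups by at least 0.545. In the OI-AdV-EGFP group, replicate 2 was low for Ibsp, replicate 3 was high for Dmp1 and replicate 1 was high for interferon-induced genes, and the values that this touches are given below. Mesenchymal genes were abundant in all 6, with Col1a1 at 5284 to 6460 CPM (counts scaled to library size, here with TMM factors between libraries). Of 10 mesenchymal identity genes 6 were lower and 2 higher by the adjusted p, against 20.6% and 19.8% of all genes tested. The 1 called, Lum, was lower. Pdgfra ran from 433 to 449 CPM before TMM scaling in OI-AdV-EGFP and from 279 to 284 in OI-AdV-CRE-EGFP, and Prrx1 from 888 to 905 and from 735 to 764, both without overlap. The total of the 15 macrophage and osteoclast genes tested ran from 1058 to 1080 CPM in OI-AdV-EGFP and from 1554 to 1609 in OI-AdV-CRE-EGFP, with Ctsk, the cathepsin K gene, the 1 member called. Ctsk made up most of that rise, with means of 392 ± 21.8 CPM in OI-AdV-EGFP and 848 ± 11 CPM in OI-AdV-CRE-EGFP (SD, n = 3 each). The macrophage genes Adgre1 and Cd68 ran from 12.9 to 15.9 and from 36.6 to 38.8 CPM before TMM scaling in OI-AdV-EGFP, and from 13.5 to 16.3 and from 38.9 to 42.1 in OI-AdV-CRE-EGFP. Csf1r, the receptor for the macrophage growth factor, ran from 17 to 20.8 and from 22.2 to 23.1, without overlap. What part these cells have in the results was not tested. The osteoclast gene Dcstamp had no counts in any of the 6, and Calcr and Ocstamp were at or under 0.123 CPM. In bulk RNA, fewer cells of a type and less RNA per cell cannot be told apart.

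Plagl1 itself did not separate the groups. Its level was 402, 393 and 380 CPM in OI-AdV-EGFP replicates and 382, 404 and 368 CPM in OI-AdV-CRE-EGFP replicates, so the ranges overlap (log2 fold change -0.03, SE 0.04, adjusted p = 0.67). On day 0 it was 401 ± 22 CPM (SD, n = 3) in AdV-EGFP and 589 ± 6.47 CPM (SD, n = 3) in AdV-CRE-EGFP. The counts cover the whole gene (GRCm39 chr10:12936248-13007438), and the sources used here do not give the exons that the loxP sites flank, so these values do not check the deletion. OI-AdV-CRE-EGFP below means the libraries with that label. Of its relatives, Plag1 ran from 20.7 to 25.6 CPM and from 17.6 to 23.5 CPM, with overlap. Actb, Gapdh and Hprt, often used as reference genes, had log2 fold changes of 0.21, 0.55 and 0.79, each with an adjusted p of 1.1e-05 or less.

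Across all genes, 357 were lower (2.61% of those tested) and 336 were higher (2.46%) in OI-AdV-CRE-EGFP. These and all later calls rest on edgeR's quasi-likelihood test with a Benjamini-Hochberg adjusted p under 0.05 and a log2 fold change of at least 1 either way. By the adjusted p alone, 2820 genes were lower (20.6%) and 2712 higher (19.8%), with a median log2 fold change of -0.01 over all genes. The lower genes stood at a median of 5.39 CPM in OI-AdV-EGFP and 1.94 CPM in OI-AdV-CRE-EGFP. Over all genes tested the OI-AdV-EGFP median was 22.8 CPM. Of the 357 lower genes, 353 had no overlap between groups. The higher genes started from a median of 0.976 CPM in OI-AdV-EGFP and reached 3.33 CPM. Of these, 169 (50.3%) were under 1 CPM in OI-AdV-EGFP, against 7.67% of all genes tested, and 321 of the 336 had no overlap. That group is the low side for these genes by the way they were chosen, which favours such low values. Without any threshold, the groups did not overlap in 26.1% of all genes with the Cre group lower and in 24.3% with it higher. Log2 fold changes of at least 2 were seen in 39 lower and 101 higher genes. When the test was made against a 2-fold change itself (glmTreat), 101 genes were lower and 128 higher.

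Genes for secreted products made up a larger share of both sets than of all genes. Of 836 tested genes annotated to the extracellular space, 84 (10%) were lower and 64 (7.66%) higher, and of 238 annotated to collagen-containing matrix 24 (10.1%) were lower and 12 (5.04%) higher. Of 5107 nuclear genes, 72 (1.41%) were lower and 88 (1.72%) higher, and of 1623 mitochondrial genes 18 (1.11%) and 16 (0.986%). The plot of level against fold change shows genes of both sets at low and at high levels, with the higher genes gathered at low levels.

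**Figure D1:**
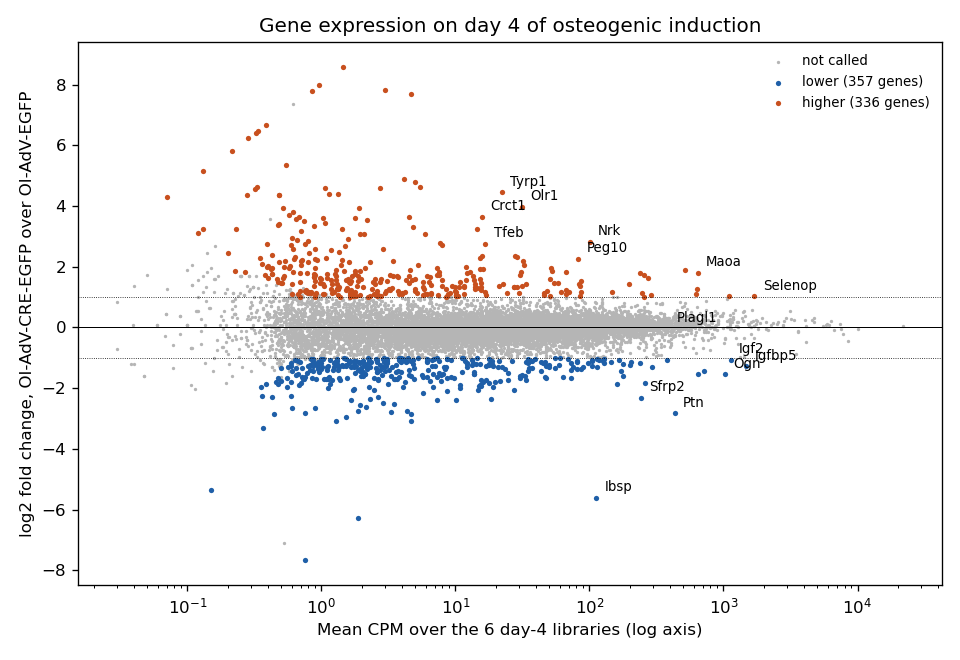
Log2 fold change between the day-4 groups, Cre against control virus (vertical axis) against mean CPM in the 6 day-4 libraries (horizontal log axis), 1 point per gene, with dotted lines at -1 and 1. Points of genes with no counts in a group are fitted values that depend on the prior count. The 357 lower genes (blue) include Ibsp at -5.61 and Ptn at -2.83, the 336 higher genes (orange) gather at low levels, and Plagl1 lies at -0.03.

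Several genes of mineralization were lower. Ibsp (chr5:104447037-104459338) encodes bone sialoprotein, an acidic glycoprotein that nucleates mineral, and stood at 285, 82.2 and 293 CPM in OI-AdV-EGFP replicates and at 4.29, 3.51 and 5.66 CPM in OI-AdV-CRE-EGFP replicates. Its lowest control library, replicate 2, was still far above every Cre library (log2 fold change -5.61, SE 0.71, adjusted p = 7.2e-07). On day 0 both groups were scattered, at 28.8 ± 26.3 CPM (SD, n = 3) in AdV-EGFP and 20.9 ± 17.7 CPM (SD, n = 3) in AdV-CRE-EGFP, so the level of the Cre cells on day 4 was below the means before induction. Phex, an endopeptidase of phosphate homeostasis, was at 7.05, 5.87 and 9.79 CPM against 1.09, 1.29 and 0.954 CPM (-2.76, SE 0.23, adjusted p = 6.9e-10). Alpl, the tissue-nonspecific alkaline phosphatase, was at 11, 11 and 14.7 CPM against 2.29, 2.22 and 2.5 CPM (-2.39, SE 0.30, adjusted p = 4.8e-07). The Cre libraries thus held Alpl at about its day-0 levels of 2.28 ± 1.48 and 2.03 ± 1.22 CPM (SD, n = 3 each).

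Dmp1, an osteocyte matrix protein that lies beside Ibsp, was at 4.05, 2.15 and 11.3 CPM against 1.15, 0.678 and 0.716 CPM (-2.78, SE 0.44, adjusted p = 1.7e-05). Replicate 3 carried much of that difference, and without it the Dmp1 log2 fold change was -1.86. The osteocalcin genes Bglap and Bglap2, near-identical copies between which reads may be shared, changed by -1.47 and -1.18, and Bglap2 was no longer past the fold threshold without OI-AdV-EGFP replicate 3 (-0.98). Tnfsf11, the osteoclast-inducing ligand RANKL, fell from 4.64, 5.58 and 4.73 CPM to 1.75, 1.17 and 1.13 CPM (-1.88), whereas Tnfrsf11b, its decoy receptor osteoprotegerin, rose from 46.4, 41.4 and 39.6 CPM to 96.4, 86.4 and 91.5 CPM (1.11). Phospho1, a phosphatase that starts mineral inside matrix vesicles, moved the other way from Alpl, from 3.17, 5.23 and 4.79 CPM to 11.1, 9.25 and 14 CPM (1.38). Of the 20 bone matrix and mineralization genes tested, 7 were lower and 2 higher, with a median log2 fold change of -0.17. With 1 day-4 library left out, 6 to 9 were lower. By the adjusted p alone 11 of the 20 were lower and 7 higher, against 20.6% and 19.8% of all genes tested. The major structural products had small log2 fold changes, 0.07 for Col1a1 (adjusted p = 0.27), -0.20 for Col1a2 (adjusted p = 0.00012) and 0.26 for Spp1 (adjusted p = 3.4e-05).

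Among 18 regulators of the osteoblast lineage, 2 were lower and none higher, against 2.61% and 2.46% of all genes tested. Sp7 was at 4.17, 2.62 and 4.08 CPM against 0.725, 1.05 and 1.01 CPM, without overlap (-1.96, SE 0.36, adjusted p = 9.8e-05). Fgfr3, an FGF receptor of cartilage and bone, changed by -1.44. Runx2 was at 40.4, 43.4 and 40.2 CPM against 28.6, 30 and 30.6 CPM, which passed the adjusted p (6.3e-07) but not the fold threshold (-0.47, SE 0.06). Mef2c, a transcription factor of hypertrophic chondrocytes and osteocytes, had a log2 fold change of -0.75. The parathyroid hormone receptor gene Pth1r had -0.83.

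**Figure D2:**
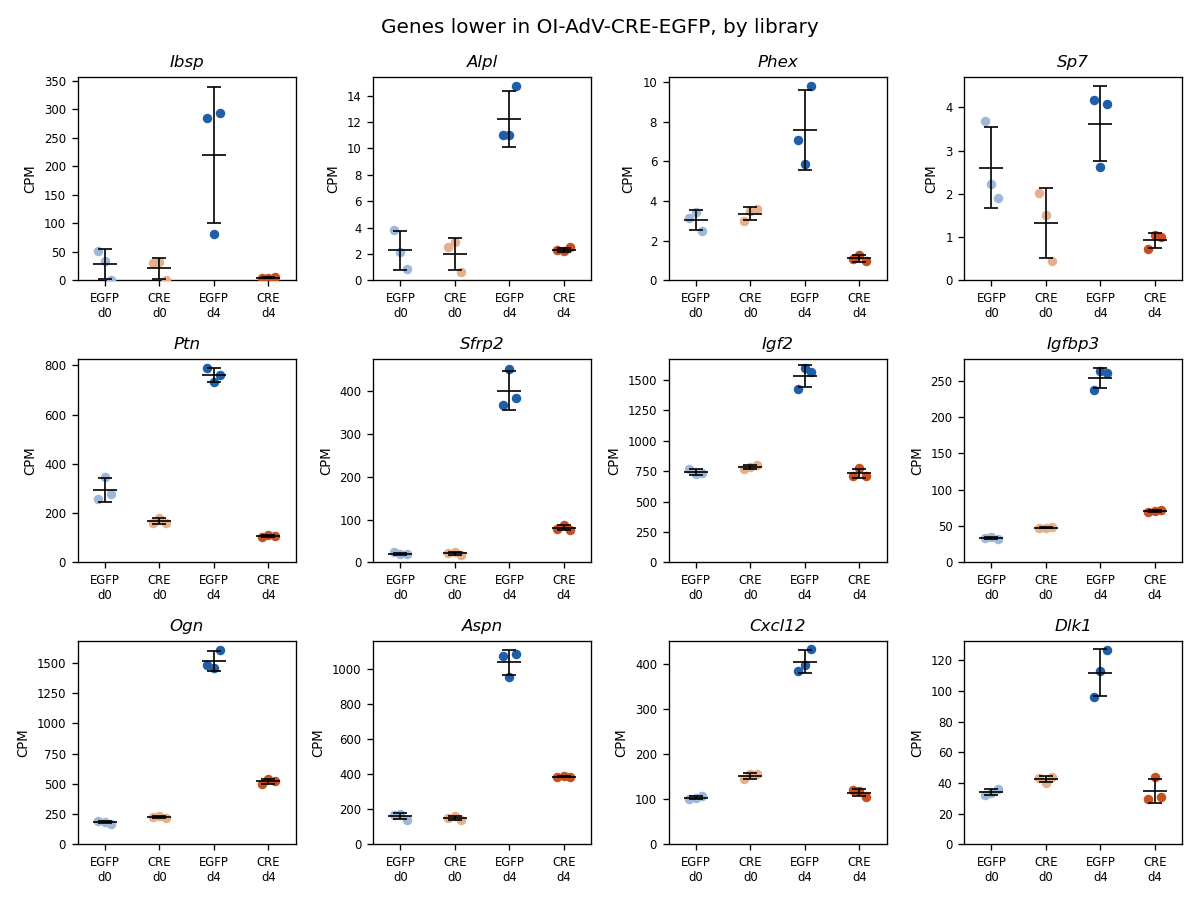
CPM of 12 genes lower in OI-AdV-CRE-EGFP in each of the 12 libraries (points), with the mean and SD of each group of 3 (bars), EGFP in blue and Cre in orange, for day 0 (pale) and day 4 (dark). For Ibsp the 3 OI-AdV-EGFP libraries spread from 82.2 to 293 CPM and the OI-AdV-CRE-EGFP libraries lie between 3.51 and 5.66 CPM, and for Igf2 the latter (711 to 774 CPM) lie near the day-0 groups.

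The IGF axis was lower at the ligand Igf2 and at the binding proteins Igfbp3 and Igfbp5. Igf2 (chr7:142204503-142220694) was at 1428, 1600 and 1568 CPM against 711, 774 and 713 CPM (-1.06, SE 0.04, adjusted p = 5.7e-16). The day-0 means were 743 ± 24.3 CPM in AdV-EGFP and 785 ± 17.8 CPM in AdV-CRE-EGFP (SD, n = 3 each), so the higher level was seen in the induced control cells alone of the 4 groups. Igfbp5, a binding protein that also attaches to matrix, was at 2066, 2229 and 1996 CPM against 875, 919 and 803 CPM (-1.28, SE 0.05). Igfbp3, the main carrier of IGFs in blood, was at 237, 263 and 260 CPM against 68.8, 70.7 and 71.6 CPM (-1.85, SE 0.05, adjusted p = 2.1e-19). Both binding proteins remained above their day-0 levels in the Cre cells, at 866 ± 58.2 against 205 ± 2.87 CPM for Igfbp5 and at 70.4 ± 1.42 against 47.5 ± 0.942 CPM for Igfbp3 (SD, n = 3 each).

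Chrdl1, a secreted antagonist of BMPs, was at 99.7, 95.2 and 91.9 CPM against 31.5, 32.6 and 27.9 CPM (-1.64). Gas6, a ligand of the TAM receptor kinases, was at 1830, 1920 and 1942 CPM against 943, 992 and 961 CPM, just short of the fold threshold (-0.97, SE 0.04, adjusted p = 5.6e-16). Igf1 was likewise at 441, 401 and 400 CPM against 227, 207 and 209 CPM (-0.95). Igfbp2 rose, from 170, 173 and 167 CPM to 317, 337 and 375 CPM (1.01), though its fold was 0.94 without OI-AdV-CRE-EGFP replicate 3 and 1.00, under the threshold, without OI-AdV-EGFP replicate 3. The IGF list, which includes Chrdl1 and Gas6, had 4 of 23 genes lower and 1 higher, against 2.61% and 2.46% of all genes tested. By the adjusted p alone 12 of the 23 were lower and 6 higher, against 20.6% and 19.8% of all genes. The receptor gene Igf2r had a log2 fold change of 0.33.

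Other secreted signals fell as well. Ptn (pleiotrophin, a heparin-binding growth factor of bone and nerve) was at 790, 733 and 759 CPM against 103, 111 and 106 CPM (-2.83, SE 0.08, adjusted p = 3.6e-19). The Cre libraries were below both day-0 groups, which held 294 ± 47.5 and 167 ± 12.5 CPM (SD, n = 3 each). Its relative Mdk (midkine) changed by -1.23, and their receptor phosphatase Ptprz1 rose by 1.40 on the log2 scale. Sfrp2, a secreted Wnt-binding protein, was at 366, 452 and 384 CPM against 77.9, 87.9 and 76.5 CPM (-2.31, SE 0.07, adjusted p = 8.8e-18), with about 20.5 and 21.1 CPM on day 0. Cxcl12, the stromal chemokine that binds CXCR4, was at 385, 398 and 434 CPM against 120, 119 and 106 CPM (-1.82). Dlk1, an imprinted Notch-related inhibitor of adipocyte formation, was at 96.2, 113 and 127 CPM against 29.8, 44.1 and 31.1 CPM (-1.68). Draxin, a guidance protein that antagonizes Wnt, was at 15.8, 19.7 and 15.7 CPM against 3.26, 2.65 and 3.76 CPM (-2.40).

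The small leucine-rich proteoglycans, which bind collagen and set fibril spacing, were lower in 6 of 13 and higher in 1, with a median log2 fold change of -0.96. Among all genes tested 2.61% were lower and 2.46% higher. By the adjusted p alone, 10 of the 13 were lower and 2 higher, against 20.6% and 19.8% of all genes. Ogn (osteoglycin) was at 1483, 1457 and 1608 CPM against 500, 541 and 528 CPM (-1.54, SE 0.04, adjusted p = 1.3e-18). Aspn (asporin) was at 1075, 956 and 1085 CPM against 384, 393 and 384 CPM (-1.42). In both, the groups are far apart and the Cre cells still exceeded day 0, where AdV-CRE-EGFP held 226 ± 7.88 and 152 ± 11.8 CPM (SD, n = 3 each). Ogn, Omd (osteomodulin, -1.07), Aspn and Ecm2 (-1.58) lie side by side at chr13:49658236-49780412 and were all lower. Lum (lumican, -1.13) and Fmod (fibromodulin, -1.16) lie elsewhere. The exception was Nyx (nyctalopin), which rose by 1.35 from 6.17, 5.58 and 4.13 CPM to 13, 14.7 and 12.6 CPM.

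Of 38 collagen chains, 6 were lower and 1 higher, against 2.61% and 2.46% of all genes tested. Col22a1, a chain of tissue junctions, had 27, 10 and 44 counts in OI-AdV-EGFP and none in the 3 OI-AdV-CRE-EGFP libraries, at least 8.37-fold lower with 3 counts per library as the floor. Col27a1, a fibrillar collagen of cartilage, was at 26.2, 23.8 and 24.3 CPM against 6.76, 6.66 and 7.81 CPM (-1.81). Col8a2, a network-forming chain, was at 109, 113 and 106 CPM against 49, 48.9 and 56.3 CPM (-1.09). The other lower chains were Col23a1 (-1.56), Col11a2 (-1.42) and Col9a2 (-1.39). Chondrocyte genes were lower in 4 of 15, among them Comp, the cartilage oligomeric matrix protein, at 45.8, 45.2 and 48.6 CPM against 14.2, 18.9 and 14.2 CPM (-1.56). Tendon and fibrous layer genes were lower in 4 of 14, including Tnmd (tenomodulin), from 17.7, 15.9 and 15.2 CPM to 6.4, 9.19 and 6.86 CPM (-1.12). Of 29 genes that modify or cross-link collagen none was called, and Lox, a cross-linking oxidase, was at 0.05. By the adjusted p alone 8 of the 29 were lower and 9 higher, against 20.6% and 19.8% of all genes tested.

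Some genes of complement, the acute phase and MHC class I were called lower and none higher. Chemokines and interleukins were called in both directions, 3 lower and 3 higher of 27. Among all genes tested 2.61% were called lower and 2.46% higher, or 20.6% and 19.8% by the adjusted p alone. By the latter, 12 of 22 complement genes were lower and 2 higher, and of 16 acute phase genes 10 and 1. The chemokine gene Ccl8 rose from 1.76, 1.57 and 2.01 CPM to 6.7, 4.99 and 5.31 CPM (1.66). Ccl2 had 1.03, or 0.88 without OI-AdV-CRE-EGFP replicate 1. Of 22 complement genes 6 were lower, among them C1ra and C1s1, the proteases of the first component, at 126, 122 and 124 against 49.1, 49.1 and 44.8 CPM (-1.38) and at 109, 101 and 94.5 against 48.4, 44.7 and 41.3 CPM (-1.18). C3, the hub of the cascade, was at 68.4, 73 and 69.7 CPM against 21.9, 26.6 and 20.5 CPM (-1.62). Hp (haptoglobin), an acute phase protein that binds haemoglobin, was at 45.6, 38.4 and 49 CPM against 10.2, 9.87 and 11.7 CPM (-2.07). With Hp, C3 and Steap4 (-1.42), 5 of 16 acute phase genes were lower, or 3 without OI-AdV-EGFP replicate 3. Of 19 genes of MHC class I and peptide loading, 5 were lower and none higher, and 17 were lower by the adjusted p alone. H2-K1, a classical class I heavy chain, was at 237, 268 and 240 CPM against 97.5, 109 and 121 CPM (-1.19). The neighbouring H2-Q4, H2-Q6 and H2-Q7 changed by -1.94, -2.75 and -2.55, but as near copies of one another they may share reads.

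Most of the interferon-induced genes were lower by the adjusted p alone, against 20.6% of all genes tested. Of 40 tested, 34 were lower by the adjusted p alone and none higher, with a median of -0.70, and 5 also passed the fold threshold. On day 0, before inducers, 6 were lower with the fold threshold and the median was -0.56, and the difference between the days passed the test in 3 of the 40. One control library weighed on the count. The list summed to 3421, 2500 and 2484 CPM in OI-AdV-EGFP replicates 1 to 3 and to 1767, 1769 and 1930 CPM in OI-AdV-CRE-EGFP. Without replicate 1 of OI-AdV-EGFP 3 genes passed both thresholds, without its replicate 2 or 3 the count was 10, and without OI-AdV-CRE-EGFP replicate 3 it was 9. Oasl2, an antiviral protein of the oligoadenylate synthetase family, was at 162, 107 and 111 CPM against 48.4, 49 and 54.4 CPM (-1.32). Ifi27l2a was at 36.2, 33.8 and 30.8 CPM against 8.69, 9.99 and 10.7 CPM (-1.78). Irf7, the transcription factor that amplifies the response, was at 82, 58.2 and 53.7 CPM against 27.3, 27.5 and 32.6 CPM (-1.15), and had -0.94 without replicate 1. Rsad2 (viperin) was decided by that library, at 13.3, 5.64 and 4.57 CPM against 5.68, 5.36 and 7.16 CPM (-0.36, adjusted p = 0.28, and 0.25 without replicate 1).

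The upstream sequences of this list were searched for the core of the interferon-stimulated response element, which is GAAA, any 2 bases and GAAA again, on both strands within 250 bases before the start of each canonical transcript (GENCODE M39 on GRCm39). It was found in 16 of 40 windows (40%), against 3.05% of the 13657 windows of tested genes, 6.44% of those of lower genes and 2.08% of those of higher genes. A match is a stretch of letters and not a shown binding site. Of the 16 genes with a match, 12 were lower by the adjusted p, against 34 of all 40 on the list. Over all genes tested the share was 20.6%. Whether a match goes with a lower level was not tested. The windows of Isg15 (a ubiquitin-like antiviral protein, -0.80), Ifit1 (an antiviral RNA-binding protein, -0.80), Zbp1 (a sensor of Z-form nucleic acid, -0.76) and Trim30a (-1.33) are shown 5′ to 3′ on the gene's strand, since these carry single, spaced and overlapping copies. They lie at chr4:156285304-156285553 (minus strand), chr19:34618021-34618270 (plus), chr2:173060725-173060974 (minus) and chr7:104114408-104114657 (minus), and capitals mark matches to the core on either strand.
Isg15: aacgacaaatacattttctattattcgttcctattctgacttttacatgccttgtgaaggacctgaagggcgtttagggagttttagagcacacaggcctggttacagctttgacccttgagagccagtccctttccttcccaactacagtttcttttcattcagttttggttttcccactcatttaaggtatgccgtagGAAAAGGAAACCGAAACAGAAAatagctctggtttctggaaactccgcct
Ifit1: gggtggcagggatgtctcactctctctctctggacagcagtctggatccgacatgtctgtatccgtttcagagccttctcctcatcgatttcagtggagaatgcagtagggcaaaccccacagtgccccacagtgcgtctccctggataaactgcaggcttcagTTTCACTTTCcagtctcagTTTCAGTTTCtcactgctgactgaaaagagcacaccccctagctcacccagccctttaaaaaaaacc
Zbp1: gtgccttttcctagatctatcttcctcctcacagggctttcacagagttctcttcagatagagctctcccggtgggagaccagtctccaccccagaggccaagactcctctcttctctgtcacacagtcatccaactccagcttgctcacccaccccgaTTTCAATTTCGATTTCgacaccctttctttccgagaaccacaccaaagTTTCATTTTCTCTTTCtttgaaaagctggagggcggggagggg
Trim30a: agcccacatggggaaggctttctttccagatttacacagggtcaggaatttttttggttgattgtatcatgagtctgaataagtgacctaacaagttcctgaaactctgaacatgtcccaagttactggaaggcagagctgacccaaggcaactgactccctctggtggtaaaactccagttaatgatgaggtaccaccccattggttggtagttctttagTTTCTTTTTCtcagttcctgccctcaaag

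Isg15 holds overlapping copies at 50, 44 and 38 bases before the start, and Zbp1 holds overlapping copies in both of its clusters. In Ifit1 the 2 copies lie at 86 and 67 bases, and Trim30a has 1 copy. The library values of Isg15 were 111, 68.1 and 64.6 CPM against 42.1, 47.4 and 50.2 CPM, and those of Trim30a were 67.8, 46.1 and 39.3 CPM against 19.7, 18.7 and 22.2 CPM. In both genes replicate 1 was the highest control library and the groups did not overlap. A run of 6 G followed by 4 C, a binding sequence described for PLAGL1, was in 14 of all windows (0.103%), in none of the 357 windows of lower genes and in 1 of the 336 of higher genes, which says only that these letters are rare this close to a start.

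In the other direction, a set of genes best known from pigment cells rose. Tyrp1 (chr4:80752360-80769956), an enzyme of melanin synthesis, went from 1.82, 1.86 and 2.12 CPM to 44.3, 42.4 and 41 CPM, a separation of groups with little spread (4.45, SE 0.14, adjusted p = 4.4e-18). Mlana, a melanosome protein, went from 0.411, 0.581 and 0.272 CPM to 11.2, 11.4 and 8.88 CPM (4.62). Tfeb, a transcription factor of the MiT family that drives lysosomal genes, went from 4.11, 4.53 and 4.35 CPM to 28.4, 26.6 and 32.3 CPM (2.75, SE 0.11, adjusted p = 8.6e-16). Of 14 MiT factors and pigment genes listed, 8 were higher and none lower, against 2.46% and 2.61% of all genes tested. The others of the 8 were Kit (3.07), Mreg (1.55), Rab38 (1.18), Rab27a (1.13) and Gpnmb (1.05). Gpnmb, a glycoprotein of osteoblasts and macrophages, was the most abundant, at 705, 722 and 718 CPM against 1501, 1471 and 1478 CPM.

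Of the other MiT factors, Mitf was at 0.02 (adjusted p = 0.91; -0.11 without OI-AdV-CRE-EGFP replicate 1 and -0.01 without OI-AdV-EGFP replicate 1) and Tfe3 at 0.09. Tfec was at 1.18, 1.57 and 1.85 CPM against 2.78, 2.34 and 3.4 CPM, without overlap and short of the fold threshold (0.88, adjusted p = 0.014), which it passed without OI-AdV-CRE-EGFP replicate 2 (1.01) or OI-AdV-EGFP replicate 3 (1.05). Of the defining melanocyte genes, Tyr was at or under 0.358, Dct at or under 0.277 and Pmel between 0.477 and 0.832 CPM before TMM scaling, and Sox10 was in the range of 0.298 to 1.88. The E-box that MiT factors bind, TCANGTG on either strand, was in the windows of Tyrp1 and Mlana, 2 of the 14 (14.3%), against 10.4% of all windows, 11.3% of those of higher genes and 8.68% of those of lower genes. Both windows lie partly or wholly inside annotated gene models. The 26 bases around the first match are shown on the plus strand, with the E-box in capitals, for these 2 windows, the ones of the list with a match.
Tyrp1: ggagggagTCATGTGctgcctagtag
Mlana: acattagaCACATGAtaaaaatactt

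**Figure D3:**
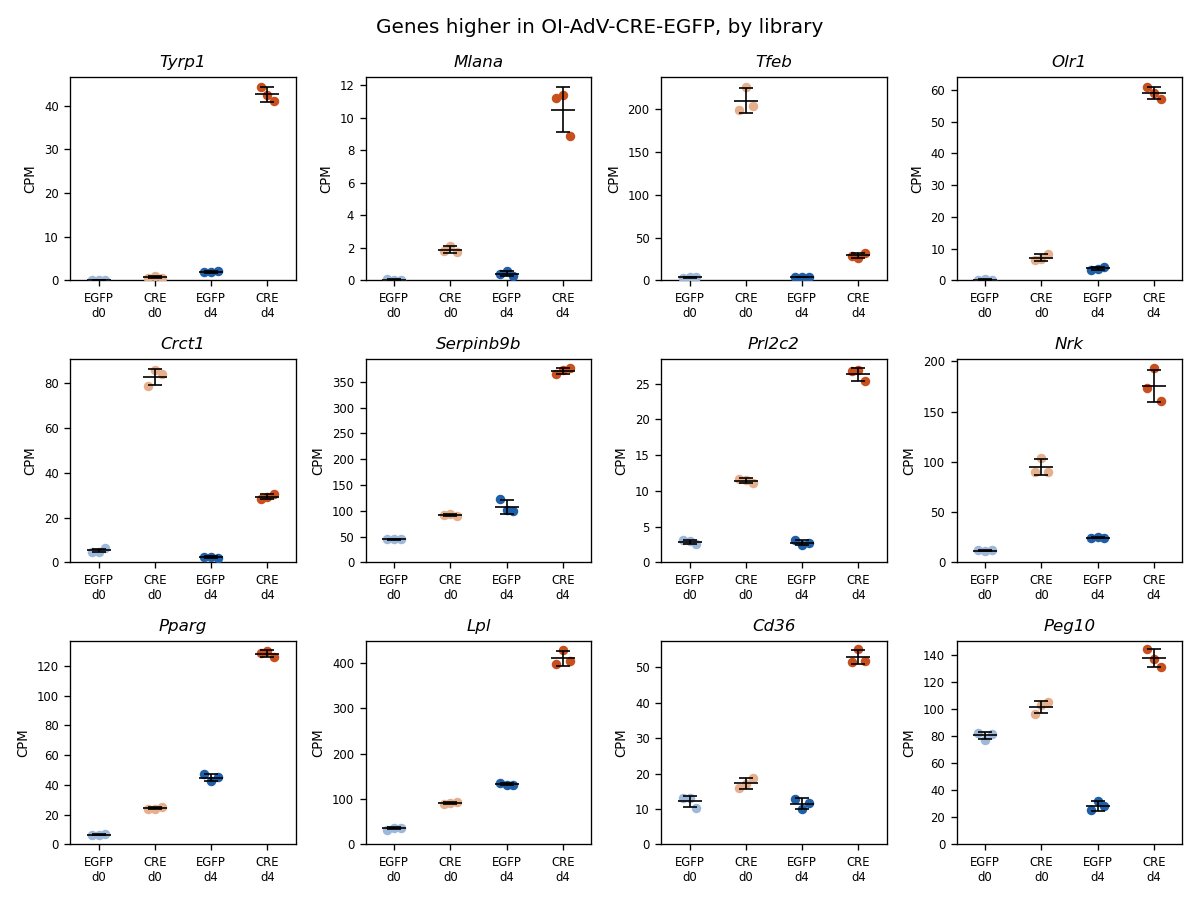
CPM of 12 genes higher in OI-AdV-CRE-EGFP in each of the 12 libraries (points), with group means and SD (bars, n = 3), EGFP in blue and Cre in orange, for day 0 (pale) and day 4 (dark). Tfeb and Crct1 were highest in AdV-CRE-EGFP on day 0 (210 and 82.8 CPM), while Tyrp1, Mlana and Lpl were highest in OI-AdV-CRE-EGFP on day 4.

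Adipocyte genes rose in 6 of the 16 tested and fell in 1, against 2.46% higher and 2.61% lower among all genes tested. Pparg, the nuclear receptor that directs fat cell formation, went from 47.2, 42.4 and 45.2 CPM to 129, 130 and 126 CPM (1.52, SE 0.05, adjusted p = 2.7e-17). Lpl (lipoprotein lipase) went from 136, 132 and 131 CPM to 398, 428 and 404 CPM (1.63), and Cd36, a fatty acid carrier, from 12.9, 9.88 and 11.7 CPM to 51.4, 55.1 and 51.9 CPM (2.20). Plin2, a lipid droplet coat protein, rose by 1.44 and Fabp4, a fatty acid binding protein, by 1.17. Adipoq, the fat hormone adiponectin, stayed low, at 1.18, 1.34 and 1.25 CPM against 3.2, 2.34 and 2.33 CPM, and its fold of 1.06 fell to 0.89 without OI-AdV-CRE-EGFP replicate 1. The gene that fell was Lep (leptin, -1.64), at 0.298 to 2.7 CPM, and its adjusted p was 0.082 without OI-AdV-EGFP replicate 1.

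Scavenger receptors rose in 3 of 17 and fell in 2, against 2.46% higher and 2.61% lower among all genes tested. Olr1, the receptor for oxidized lipoprotein, went from 3.41, 3.66 and 4.19 CPM to 60.9, 59 and 57.1 CPM (3.97, SE 0.11, adjusted p = 5.8e-19). Megf10, an engulfment receptor, went from 11.5, 12.9 and 13.1 CPM to 55.7, 52 and 50 CPM (2.07), and Cd36 was the third. Scara3 and Scara5, neighbours on chromosome 14, changed by -1.15 and -1.08. Among the most abundant genes, Maoa (monoamine oxidase A) went from 302, 279 and 284 CPM to 1015, 998 and 988 CPM (1.79). Selenop, the selenium carrier, went from 1135, 1095 and 1130 CPM to 2279, 2270 and 2303 CPM (1.03). Ctsk, the collagen-degrading cathepsin of osteoclasts and fibroblasts, went from 405, 404 and 367 CPM to 850, 836 and 858 CPM (1.11), while the osteoclast gene Acp5 was between 6.92 and 8.32 and between 4.17 and 5.78 CPM before TMM scaling. Ccn3, a matricellular protein that inhibits osteoblasts, went from 384, 366 and 361 CPM to 905, 874 and 898 CPM (1.27).

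Several genes best known from placenta or epidermis were higher. Crct1, a gene of the epidermal differentiation complex, went from 2.59, 2.56 and 1.9 CPM to 28.1, 29.2 and 30.3 CPM (3.64), and Ivl (involucrin) from 2.29, 1.98 and 1.52 CPM to 14.1, 13.6 and 12.4 CPM (2.79). Krt18, a keratin of simple epithelia, went from 0.176, 0.116 and 0.326 CPM to 5.01, 5.55 and 5.19 CPM (4.60). Of 16 keratin and cornified envelope genes 5 were higher and none lower, while the keratinocyte genes Krt5, Krt14, Krt1 and Lor were at or under 0.119 CPM before TMM scaling and Krt10 ran from 1.77 to 2.74 in OI-AdV-EGFP and from 1.31 to 1.49 in OI-AdV-CRE-EGFP. Prl2c2 (proliferin), a placental hormone of the prolactin family, went from 3.11, 2.38 and 2.77 CPM to 26.7, 26.9 and 25.3 CPM (3.25). Prl2c3 and Prl2c5, near copies that may share its reads, rose by 2.73 and 4.61, the latter from 0, 0 and 0.218 CPM. The trophoblast genes Gcm1, Prl3b1 and Tpbpa were at or under 0.179 CPM before TMM scaling. The imprinted Peg10, a retrotransposon-derived gene that the placenta needs, went from 25.2, 32.4 and 28.1 CPM to 144, 137 and 131 CPM (2.27, SE 0.07). Nrk, an X-linked kinase that is also high in placenta, went from 24.4, 25.6 and 24.2 CPM to 173, 193 and 161 CPM (2.83). Of 28 imprinted genes, 3 were lower and 2 higher, against 2.61% and 2.46% of all genes tested.

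Some of these genes lie near each other. Taking called genes of 1 direction that follow within 500 kb, with at least 3 in a run, 13 runs of lower genes held 45 of the 357, and 13 runs of higher genes held 58 of the 336. Runs also hold genes that were not called, with 3 called of 26 tested in the loosest, and how many runs all tested genes would give was not tested. The genes named for these runs were chosen after their values were seen. Each run is bounded by its outermost called genes, which raises the share called inside it, and genes beyond these bounds are not counted. Within such bounds on chromosome 13 (33211399-34089714), all 8 genes tested were higher. They are the serpin genes Serpinb9b to Serpinb9g, Serpinb1b and Serpinb6c. Serpinb9b, an inhibitor of granzymes, was the most abundant, at 122, 101 and 99.1 CPM against 365, 373 and 376 CPM (1.79). Serpinb9f and Serpinb9g had no counts in the OI-AdV-EGFP libraries and were at least 9.91-fold and 11.3-fold higher with 3 counts per library as the floor, although such near copies can share reads. A run in the epidermal differentiation complex on chromosome 3 (92029511-93379287) had 8 higher genes of 13 tested inside it, among them Crct1, Ivl, Sprr1a, Tchh and Lce1g. A histone cluster on chromosome 13 (23715220-23945650) had 8 higher of 22, led by H4c8 at 6.58, 6.68 and 6.42 CPM against 15.6, 14.3 and 20.1 CPM (1.35). Of the other 7, H2ac8, H3c7, H4c3 and H4c4 each missed a threshold when 1 of the day-4 libraries was left out. Among lower runs, 5 interferon-inducible Ifi200 genes lie together on chromosome 1, with Ifi205 from 29.4, 25 and 20.4 CPM to 9.78, 10.7 and 12.2 CPM (-1.19). Of the other 4, Ifi213 was no longer past the adjusted p in 5 of the 6 fits without a day-4 library, with the replicate block (0.055) or with DESeq2 (0.1). Ifi208 missed it without OI-AdV-CRE-EGFP replicate 1 (0.089), and Ifi203 missed the fold threshold without OI-AdV-EGFP replicate 1 (-0.89). Sparcl1, Dmp1 and Ibsp lie together on chromosome 5, and the myosin heavy chain genes Myh2, Myh1 and Myh8 on chromosome 11, where Myh2 missed the adjusted p without OI-AdV-EGFP replicate 2 (0.072), which would leave 2 genes. Myh1 was at 19.7, 20.3 and 21.6 CPM against 6.88, 8.2 and 6.14 CPM (-1.54), while the muscle genes Ckm, Myh4 and Myog were at or under 0.388 CPM before TMM scaling. The skeletal actin gene Acta1 rose, from 7.17, 9.88 and 8.16 CPM to 20.8, 18.9 and 22.1 CPM (1.29), and the desmin gene Des had 1.01, which was 0.85 without OI-AdV-CRE-EGFP replicate 3 and 0.92 without OI-AdV-EGFP replicate 1.

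Few genes of metabolism and growth passed the fold threshold. By the adjusted p alone, 19.8% of all genes tested were higher and 20.6% lower, which are the shares to set beside each count below. Of 79 nuclear genes of oxidative phosphorylation, 54 were higher by the adjusted p alone and 1 lower, with a median of 0.24 and none past the fold threshold, and on day 0 the median was 0.19. Of 13 genes of the mitochondrial genome 7 were higher by the adjusted p, with a median of 0.19. Atp5b, a subunit of ATP synthase, was at 711, 710 and 714 CPM against 921, 918 and 950 CPM (0.39, SE 0.03, adjusted p = 3.5e-10). Of 28 glycolysis genes, 13 were higher and 5 lower by the adjusted p, and Hk2, a hexokinase that commits glucose to the pathway, was the one past the fold threshold, from 28.3, 32.4 and 27.5 CPM to 78.9, 82.8 and 79.1 CPM (1.45). Of 24 cholesterol synthesis genes 17 were higher by the adjusted p and none lower (median 0.35), with Insig1, the sterol sensor partner, at 71.6, 69.2 and 60.6 CPM against 115, 120 and 116 CPM (0.80). Of 35 cell cycle genes, 10 were higher and 1 lower by the adjusted p, with a median of 0.02, against 19.8% higher and 20.6% lower over all genes. Rrm2, the small subunit of ribonucleotide reductase, was alone past the fold threshold, from 155, 154 and 150 CPM to 354, 340 and 326 CPM (1.15). Of 28 targets of the stress factor ATF4, 2 rose, Chac1 (2.05) and Trib3 (1.05), and 16 were higher by the adjusted p alone.

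**Figure D4:**
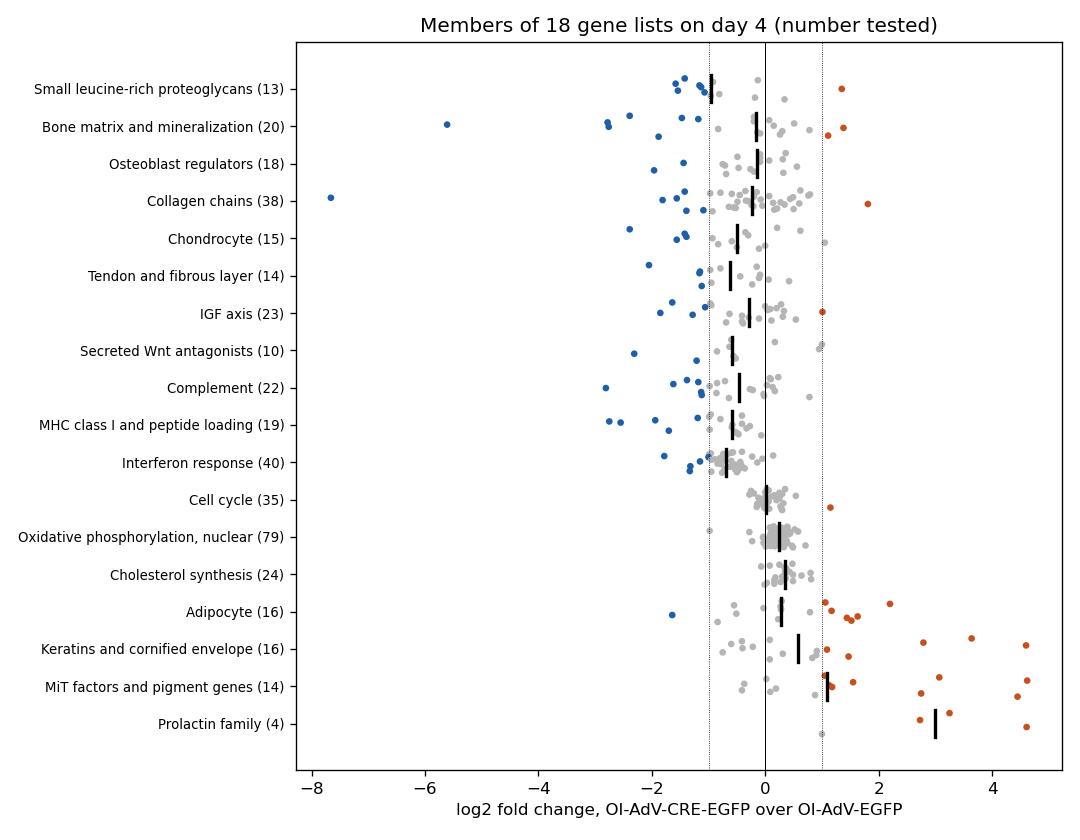
Log2 fold change on day 4 of each tested member (points) of gene lists named on the vertical axis with the number tested, blue for lower, orange for higher and grey for not called, with the list median as a black bar. The collagen chain farthest to the left is Col22a1, whose place depends on the prior count. The medians run from -0.96 for the small leucine-rich proteoglycans to 2.99 for the prolactin family, and the interferon list (median -0.70) lies almost wholly below 0.

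The same comparison before induction shares no library with that of day 4 and covers cells not yet given inducers. The days differ in time since infection as well as in inducers, and these cannot be told apart. On day 0, 76 genes were lower (0.556%) and 356 higher (2.6%) in AdV-CRE-EGFP. Of the 336 genes higher on day 4, 134 (39.9%) were also higher on day 0, which is 37.6% of the day-0 list, and 3 were lower. Of the 357 genes lower on day 4, 12 (3.36%) were also lower on day 0, 15.8% of that list, and 12 were higher. The median day-0 log2 fold change was 0.91 for the genes higher on day 4 and -0.15 for those lower. A test of the difference between the days (the interaction) passed the adjusted p in 3115 genes (22.8%), 1648 with a lower and 1467 with a higher fold change on day 4. Of the 357 lower genes, 186 passed it in the same direction and none in the opposite one, and of the 336 higher genes 116 and 30. These genes were chosen by their day-4 fold change, which is part of the interaction, so the choice itself favours the same direction.

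The named genes follow both patterns. Phex, Alpl, Igf2, Sfrp2 and Ogn were called lower on day 4 and not on day 0, with interactions of -2.91 for Phex (adjusted p = 2.8e-07), -2.23 for Alpl (0.0017), -1.14 for Igf2 (3.8e-13), -2.35 for Sfrp2 (1.8e-12) and -1.84 for Ogn (4.2e-16). Igfbp3, Igfbp5 and Cxcl12 were slightly higher on day 0, at 0.52, 0.57 and 0.56. Tfeb, Nrk, Crct1, Olr1, Pparg and Maoa were higher on both days, with day-0 values of 5.83, 3.01, 3.95, 4.78, 1.88 and 1.98. Tfeb was far higher before induction, at 210 ± 14.4 CPM in AdV-CRE-EGFP (SD, n = 3) against 29.1 ± 2.9 CPM in OI-AdV-CRE-EGFP. Of the 336 genes higher on day 4, 199 had no call on day 0. Mbnl3, a splicing regulator, was at 10.1, 9.3 and 9.19 CPM against 45.2, 48.5 and 50.5 CPM (2.33, and -0.07 on day 0), and Slc6a15, an amino acid carrier, at 5.88, 4.77 and 4.73 CPM against 27, 23.2 and 25.6 CPM (2.30, and 0.19 on day 0). Peg10 and Cd36 belonged with them, at 0.33 and 0.49 on day 0. In the cell cycle list the median was -0.42 on day 0, and the interaction was positive in 28 of 35 genes.

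**Figure D5:**
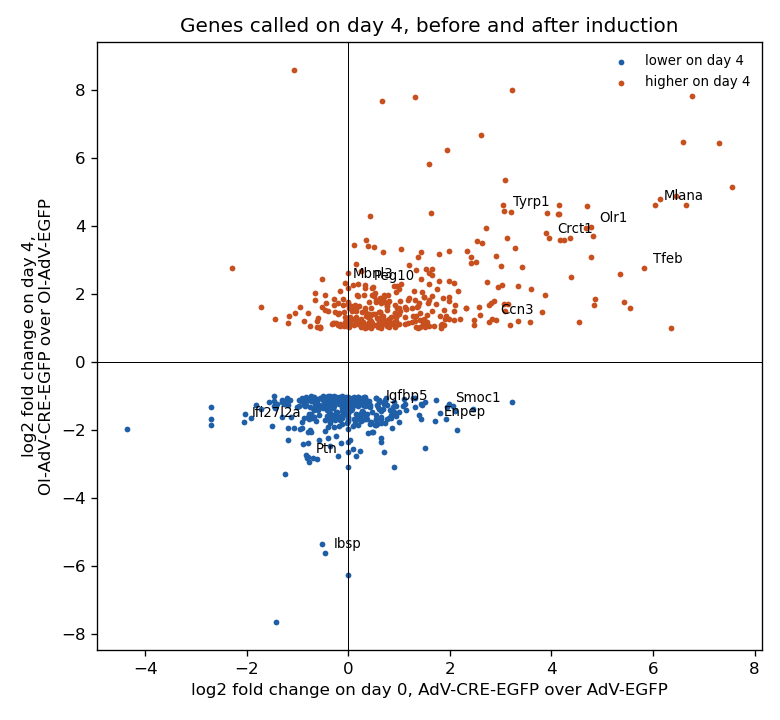
Log2 fold change on day 4 (vertical axis) against that on day 0 (horizontal axis) for the 357 genes lower and the 336 genes higher on day 4, 1 point per gene. Lower genes lie around 0 on the day-0 axis (median -0.15), and higher genes spread to the right (median 0.91), with Tfeb at 5.83 and Mbnl3 at -0.07.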

How the data were processed

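RNA was measured in 12 libraries, of which the 6 of day 4 are compared here. The authors isolated RNA with TRIzol, used a NEBNext Ultra II kit on an Illumina NovaSeq, trimmed with Cutadapt, aligned to GRCm39 with HISAT2 and counted with HTSeq. The deposited table gives unscaled estimated counts for 22063 genes, and 1724 to 1835 values per day-4 library are not whole, which the sources used here do not explain. The deposited FPKM values, scaled by the authors for gene length and library size, served an alternative. Strand setting and annotation release are not given there either, so overlapping and antisense genes are uncertain, as are near-identical copies.

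Counts were rounded, filtered by filterByExpr, scaled by TMM and fitted in edgeR 4.0.16 (R 4.3.3) as 4 group means over 12 libraries, common biological coefficient of variation 0.0472. CPM compares libraries within a gene, not genes. The steps were tested on simulated data. Replicate libraries differed by more than sampling noise (chi-square per gene 2.16 to 5.07), so each counts once. Named genes are Plagl1 and genes the study measured, the 15 largest changes each way at 10 CPM or more, up to 4 called genes of each list, the 10 most abundant called genes, 3 reference genes and the 10 largest interactions. Remaining members of lists and all members of runs were chosen after their values were seen. All members, lists and rules were chosen with earlier results of these data known. Alternatives were other scalings, DESeq2 1.42.0, limma 3.58.1 on log2 FPKM, filters, a replicate block, glmTreat and leaving out each library.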

Additional observations from a re-analysis of the deposited data

Results flagged for a closer look

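The fold change between the Cre and EGFP libraries differed between day 0 and day 4 in 3115 of 13670 genes. This rests on the interaction test of edgeR at an adjusted p under 0.05. The 10 largest such differences among genes with a mean of at least 10 CPM over the 12 libraries were all negative, that is, Cre against EGFP was lower on day 4 than on day 0. Ibsp had -5.17, with the scatter on day 0 given above. Mmp13, the collagenase of hypertrophic cartilage and osteoblasts, had -3.84. It was at 17.1 ± 4.01 and 135 ± 26.5 CPM in AdV-EGFP and AdV-CRE-EGFP and at 388 ± 32.9 and 213 ± 9.1 CPM after induction (SD, n = 3 each). Enpep, an aminopeptidase that cleaves angiotensin, had -3.44 (1.71 on day 0 and -1.73 on day 4). Smoc1, a matricellular BMP antagonist, had -3.27 and Ndnf, a secreted neuronal and endothelial factor, -2.68, both higher on day 0 and lower on day 4. Adamts15, a proteoglycan-cleaving protease, had -2.53, and its day-0 means were 0.443 and 0.742 CPM. Tfeb had -3.08, with day-0 and day-4 values of 5.83 and 2.75. Wfdc3 had -3.37, and its mean went from 0.253 to 4.19 CPM with Cre on day 0 and from 21 to 32.7 CPM on day 4. Ppfibp2 had -2.88, with 2.72 on day 0 and -0.16 on day 4. Zfp968 had -12.09, a value that depends on the prior count since AdV-EGFP had no counts, and its libraries scattered widely, at 29.1, 1.1 and 39.5 CPM in OI-AdV-EGFP and at 0, 19.9 and 16.6 CPM in OI-AdV-CRE-EGFP.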

How the results depend on the processing

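Testing against a 2-fold change with glmTreat left 101 lower and 128 higher genes on day 4, and 1 lower and 152 higher on day 0. With limma on log2(FPKM + 1), which shrinks changes of low genes, the counts were 130 and 111 on day 4 and 7 and 115 on day 0. With DESeq2 they were 329 and 328 on day 4, and with the replicate block 348 and 331. The block left 3031 interactions, and replicate numbers did not pair the libraries (correlations of deviations from -0.0515 to 0.0373 over the pairs of groups). Leaving out 1 library gave 345 to 365 lower and 321 to 364 higher genes on day 4, 71 to 99 and 328 to 368 on day 0, and 2708 to 3060 interactions. Other scalings, filters and the 6-library fit kept every count within 1.5 times. Of 218 named genes, 122 kept their sign and stayed called or not called under all alternatives. Signs turned with 1 library left out for Plagl1 (-0.06 to 0.00, the latter without OI-AdV-CRE-EGFP replicate 3), Mitf (-0.11 to 0.13, with -0.11 without OI-AdV-CRE-EGFP replicate 1 and -0.01 without OI-AdV-EGFP replicate 1) and Rsad2 (-0.64 to 0.25, the latter without OI-AdV-EGFP replicate 1), none of them called, and the cause was not tested. Low counts limit the genes under 1 CPM, 169 of the higher and 25 of the lower genes in OI-AdV-EGFP. Since OI-AdV-EGFP is the low side for the higher genes and the high side for the lower genes, these counts do not compare. The lower genes had a median of 1.94 CPM in OI-AdV-CRE-EGFP, where low counts limit them too.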

Other observations

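Gene groups outside the report's comparisons were mostly small in number. Of 1123 genes in an annotated transcription factor family, 13 were lower (1.16%) and 18 higher (1.6%) on day 4, with a median log2 fold change of -0.12. Of 371 lysosomal genes by annotation 5 were lower (1.35%) and 9 higher (2.43%), against 2.61% and 2.46% of all genes tested. Of the 49 lysosome genes listed, Ctsk and Atp6v0d2, a proton pump subunit, were higher. By the adjusted p alone, 20 of the 49 were higher and 7 lower, against 19.8% and 20.6% of all genes tested. Atp6v0d2 went from 6.76, 7.32 and 5.49 CPM to 13.5, 14.2 and 13.5 CPM (log2 fold change 1.08), and was at 0.96 without OI-AdV-EGFP replicate 3. The p53 target Sesn1 (sestrin) fell from 114, 110 and 108 CPM to 50.5, 48.5 and 51.7 CPM (-1.14). It was the 1 called gene of 25 p53 targets, against 2.61% lower among all genes tested. Of 22 glucocorticoid-responsive genes, 2 were lower and 1 higher in cells that all received dexamethasone, and 2 were higher with DESeq2, with the 6-library fit and without OI-AdV-CRE-EGFP replicate 1, its replicate 2 or OI-AdV-EGFP replicate 2. Without OI-AdV-CRE-EGFP replicate 2 or OI-AdV-EGFP replicate 1, 3 were lower. Fam107a fell from 20.1, 19.6 and 20.8 CPM to 8.82, 6.29 and 6.86 CPM (-1.46), and Angptl4, an inhibitor of lipoprotein lipase, rose from 12.8, 13.1 and 15.8 CPM to 48, 44.3 and 46.5 CPM (1.73). Over the autosomes and X, the share of tested genes that were higher ran from 1.49% on chromosome 10 to 6.2% on chromosome 13, which holds the serpin, prolactin and histone runs, and the share that were lower from 1.05% on chromosome 19 to 4.19% on chromosome 14.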
